A study of Branchiostoma lanceolatum with 8 samples.

Results

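The regions described here are late differential regions of open chromatin that lie far from any early one. They were measured in explants of the ectoderm of the amphioxus species Branchiostoma lanceolatum. They were chosen by position from the authors' lists of differential regions: a region of the 19 hours post fertilization (hpf) list was kept when no region of the 11 hpf list on the same scaffold overlapped it or lay within an edge-to-edge gap of 10 kb. A total of 4483 of the 7252 regions of the 19 hpf list met this rule (61.8%). They are called far regions below, and the other 2769 regions are called near regions. Of the near regions, 1608 overlapped an 11 hpf region and 1161 flanked one within 10 kb without overlap. The choice rests on which regions were listed at each time, so the presence of a far region at 19 hpf and the lack of an 11 hpf region beside it are part of the rule and are not results.

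The 8 libraries were ATAC-seq libraries, made by letting a transposase insert adapters into open chromatin. Per the labels, there were 2 libraries in each of 4 groups: 19 hpf explants that received Activin (human recombinant protein, 50 ng per mL), control explants at 19 hpf, 11 hpf explants that received the same Activin, and control explants at 11 hpf. The labels give neither the time at which Activin was added nor whether libraries of the same group stem from different embryo batches. The source is labelled as ectodermal explants while the extraction text speaks of embryos, and with no expression values the tissue could not be checked against marker genes.

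Activin is a secreted ligand of the TGF-beta family. It binds serine/threonine kinase receptors, which phosphorylate SMAD2 and SMAD3, and these enter the nucleus and bind regulatory DNA together with partner factors. In amphioxus, as in vertebrates, Nodal and Activin signals act through this route, and amphioxus ectoderm, which forms epidermis when left alone, can be turned towards a neural fate by it. A regulatory region may respond to a signal soon after it arrives or only at a later stage. The 2 times of this series allow regions to be sorted by position and by the list that holds them. Such sorting does not show when a region responded, because absence from the earlier list does not show a lack of response at that time.

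Each listed region has a signed value, which was taken to be a log2 fold change of Activin against control explants at that time. All values below are the authors' own, from the authors' deposited lists, with neither errors nor replicate numbers, and the sign is given as deposited because the lists do not name the numerator. The lists hold no values per library and no read counts, so the depth of each library is unknown and no test over libraries could be made. Regions are not replicates, and the far regions were defined from the lists themselves, so the comparisons between far and near regions are descriptions without a test. The 95% intervals given with shares are exact (Clopper-Pearson). They account for counting error alone and treat neighbouring regions as if they were independent.

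The region names are running numbers along the scaffolds. The highest listed number, 87262 at 19 hpf and 111831 at 11 hpf, was taken as the least size of the set from which a list was drawn. At 19 hpf 8.31% of such a set was listed, 7.53% as negative and 0.78% as positive. At 11 hpf 3.48% was listed, 2.38% as negative and 1.11% as positive. Since the rule used the listing, nothing is read from these shares about the far regions. The lists also had unlike floors, with a smallest absolute log2 of 0.98 at 11 hpf and 1.44 at 19 hpf. No genome of the build of the lists was used here, so regions are given by scaffold and position (starts 1-based) without sequence or gene.

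Far regions were mostly negative, as were near ones. Among far regions 4078 were negative and 405 positive, so that 9.03% were positive (95% interval 8.21 to 9.91%). Among near regions 2493 were negative and 276 positive, or 9.97% positive (8.88 to 11.1%). The difference of -0.93 percentage points was smaller than the width of either interval. Its size and sign changed with the setting. It was -2.17 points on scaffolds with an 11 hpf region (95% interval -3.61 to -0.77) and -2.46 points on scaffolds of 1 Mb or more (-4.09 to -0.88). It was 1.56 points (0.001 to 3.03) when only 11 hpf regions with an absolute log2 of at least 2 defined the early positions. With only 19 hpf regions of that size kept, it was 0.81 points (-0.76 to 2.35).

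Far regions had somewhat smaller fold changes than near ones. The median absolute log2 was 2.34 in far regions, or 5.08-fold, with quartiles of 2.02 and 2.84. In near regions it was 2.52, or 5.73-fold, with quartiles of 2.12 and 3.06, and it was 2.55 in overlapping and 2.45 in flanking regions. The difference lay in the negative regions, with median absolute log2 values of 2.34 in far and 2.55 in near ones. In positive regions the order was the other way, with 2.34 in far and 2.25 in near ones. An absolute log2 of at least 3 was reached by 883 far regions (19.7%) and by 749 near regions (27.0%). At 5 or more the order turned, with 56 far regions (1.25%) and 26 near regions (0.939%). Of these near regions, 18 were flanking (1.55% of flanking regions) and 8 overlapping (0.498% of overlapping ones). The far share thus lay above that of overlapping regions and below that of flanking regions. The difference in medians of -0.17 was -0.10 with a gap over 50 kb and -0.26 when only 11 hpf regions with an absolute log2 of at least 2 defined the early positions.

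**Figure D1:**
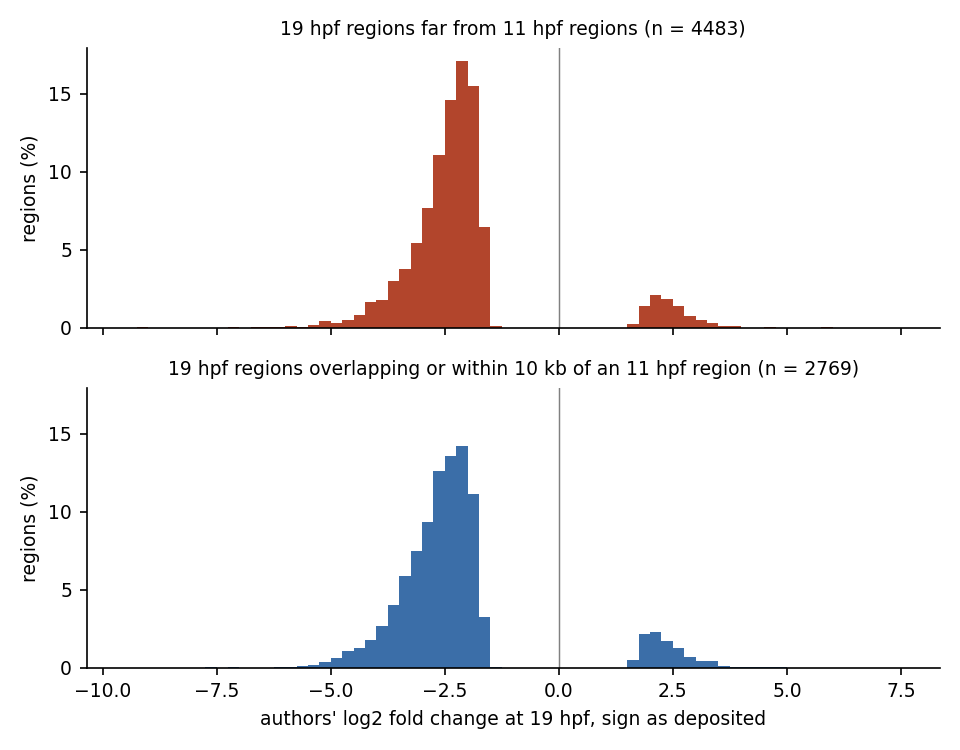
Distribution of the authors' log2 fold change at 19 hpf (x axis, sign as deposited) as a percentage of regions (y axis), in the 4483 far regions (upper panel, red) and the 2769 near regions (lower panel, blue). Both panels show a large negative and a small positive group with an empty stretch around 0, where nothing was listed; the median absolute log2 is 2.34 in far and 2.52 in near regions.

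Width moves with both the fold change and the rule. The median width was 486 bp in far regions (quartiles 315 to 738) and 552 bp in near regions (345 to 868). The difference of -66 bp was -169 bp when every region without overlap counted as far, -108 bp after merging within 500 bp, -32 bp with a gap over 50 kb and -25.5 bp when only 11 hpf regions with an absolute log2 of at least 2 defined the early positions. A wide region takes up more sequence that could overlap an 11 hpf region, and the overlapping regions had a median of 647 bp against 449 bp in flanking ones, so that far regions were narrower than overlapping regions and a little wider than flanking regions. In the list as a whole, narrow regions had larger values. The comparison of fold changes was therefore repeated within quartiles of width of the whole 19 hpf list, which was decided after the values had been seen. Far minus near medians of absolute log2 were -0.12 among regions of 145 to 324 bp, -0.21 at 325 to 509 bp, -0.19 at 510 to 784 bp and -0.26 at 785 bp or more. Against flanking regions alone the differences were smaller, at -0.08, -0.20, -0.03 and -0.08 in the same order.

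The share of far regions among the most negative regions depended on how many were taken, and among the most positive it was near that of all positive regions. Far regions made up 15 of the 20 most negative regions (75%, 95% interval 50.9 to 91.3%), 61 of the 100 most negative (61.0%, 50.7 to 70.6%) and 107 of the 200 most negative (53.5%, 46.3 to 60.6%), against 62.1% of all negative regions. The interval at 200 lay below the share over all negative regions, and those at 20 and 100 took it in. They made up 13 of the 20 most positive regions (65.0%, 40.8 to 84.6%) and 60 of the 100 most positive (60.0%, 49.7 to 69.7%), against 59.5% of all positive ones.

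Several of the most negative far regions stood in short runs of far regions, at most 10 kb from neighbour to neighbour, that were all negative. The lowest value, -9.18, was found on Sc0000415 in a region of 188 bp (134580 to 134767), 109 kb from the nearest 11 hpf region, which was positive at 2.43. The other 3 members of its run, which spanned 15.4 kb, had values of -2.29, -4.20 and -2.43, so that this narrow region stood far below its neighbours. The next lowest, -9.06, was on Sc0001490 (2251 to 2420), a scaffold with no 11 hpf region. Here the whole run was low: over 4.76 kb its other members had -5.37, -6.52 and -6.15. The region with -8.44 on Sc0000020 (1314218 to 1314772) lay between members with -2.48 and -2.81, and the last member of its run had -4.64. On Sc0000069 (1078284 to 1078805) a value of -6.78 stood beside one of -5.20 in a pair that spanned 1.88 kb.

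The other 4 of the 8 most negative far regions had no far region within 10 kb. They had -7.97 on Sc0000059 (1601903 to 1602244), -7.24 on Sc0000442 (93952 to 94480), -7.19 on Sc0000871 (25555 to 25940) and -6.68 on Sc0000031 (588125 to 588510). Sc0000442 and Sc0000871 had no 11 hpf region. All 8 were 170 to 555 bp wide. The read counts behind fold changes of this size are not in the lists used here.

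The most positive far regions stood mostly alone, and where an 11 hpf region lay on their scaffold, the nearest was negative. The highest value was 7.04, in a lone region on Sc0000357 (83698 to 83971), 81.6 kb from an 11 hpf region at -1.75. The next, 6.94 on xpSc0040052 (3818 to 4311), had a positive neighbour at 3.62 on a scaffold with no 11 hpf region. The region with 5.47 on Sc0000002 (520997 to 521722) likewise had a positive neighbour, at 2.82, and lay 250.3 kb from an 11 hpf region at -2.71. No far neighbour within 10 kb was listed for the other 5. These were 5.94 on Sc0000783 (32958 to 33190), 5.81 on Sc0000046 (1799974 to 1800397), 4.64 on Sc0000013 (2500 to 2766), 4.59 on xfSc0000206 (4455 to 4637) and 4.19 on Sc0000404 (134869 to 135188). Of the 8, 3 were on scaffolds without an 11 hpf region, and for the other 5 the nearest was negative and for 0 it was positive. Of the 8 most negative far regions, 3 were likewise on scaffolds without one, and the nearest was negative for 3 and positive for 2. Over all far regions the nearest was negative for 2739 and positive for 1173, and over positive far regions for 171 and 134. A far neighbour within 10 kb was found for 29.4% of all positive far regions. Most far regions thus had a negative nearest region and most positive ones stood alone, so these small counts were not read further.

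The widest far regions had moderate values. The widest was 4126 bp, on xfSc0000699 (268 to 4393), with -2.29. A region of 2823 bp on Sc0001162 (3910 to 6732) had 2.04 and one of 2670 bp on Sc0001363 (463 to 3132) had -2.27. All 3 scaffolds had no 11 hpf region. The next were 2590 bp with -1.83 on Sc0000085 (429372 to 431961) and 2543 bp with -2.22 on Sc0000022 (1662783 to 1665325).

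Distance was then described within the far regions. Of these, 3912 lay on 403 scaffolds that held an 11 hpf region, at a median gap of 65.5 kb (quartiles 30.8 to 131 kb), and 571 lay on 386 scaffolds that held none. At the edge of the rule, the 3 far regions with the smallest gaps were 10014, 10056 and 10072 bp from an 11 hpf region. They had log2 values of -2.60 on Sc0000004 (2125281 to 2125447), 2.34 on Sc0000021 (3227960 to 3228458) and -1.86 on Sc0000332 (227970 to 230281). The 3 near regions with the largest gaps, of 9989, 9986 and 9979 bp, had -1.87 on Sc0000011 (1905960 to 1906422), -1.67 on Sc0000277 (47228 to 48219) and 2.05 on Sc0000115 (364157 to 364787).

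Fold changes hardly varied with distance beyond 10 kb. The median absolute log2 was 2.32 in the 525 far regions at 10 to 20 kb, 2.35 in the 1077 at 20 to 50 kb, 2.36 in the 974 at 50 to 100 kb, 2.39 in the 834 at 100 to 200 kb, 2.33 in the 461 at 200 to 500 kb and 2.38 in the 41 beyond 500 kb. On scaffolds with no 11 hpf region it was 2.29. The share of positive regions varied more. It was 8.57% (95% interval 6.32 to 11.3%) at 10 to 20 kb and 10.2% (8.47 to 12.2%) at 20 to 50 kb, and then 5.65% (4.28 to 7.29%) at 50 to 100 kb, 7.19% (5.53 to 9.16%) at 100 to 200 kb and 7.16% (4.98 to 9.91%) at 200 to 500 kb. On scaffolds with no 11 hpf region it was 17.5% (14.5 to 20.9%). Without these scaffolds the positive share of far regions was 7.80% (6.98 to 8.68%).

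**Figure D2:**
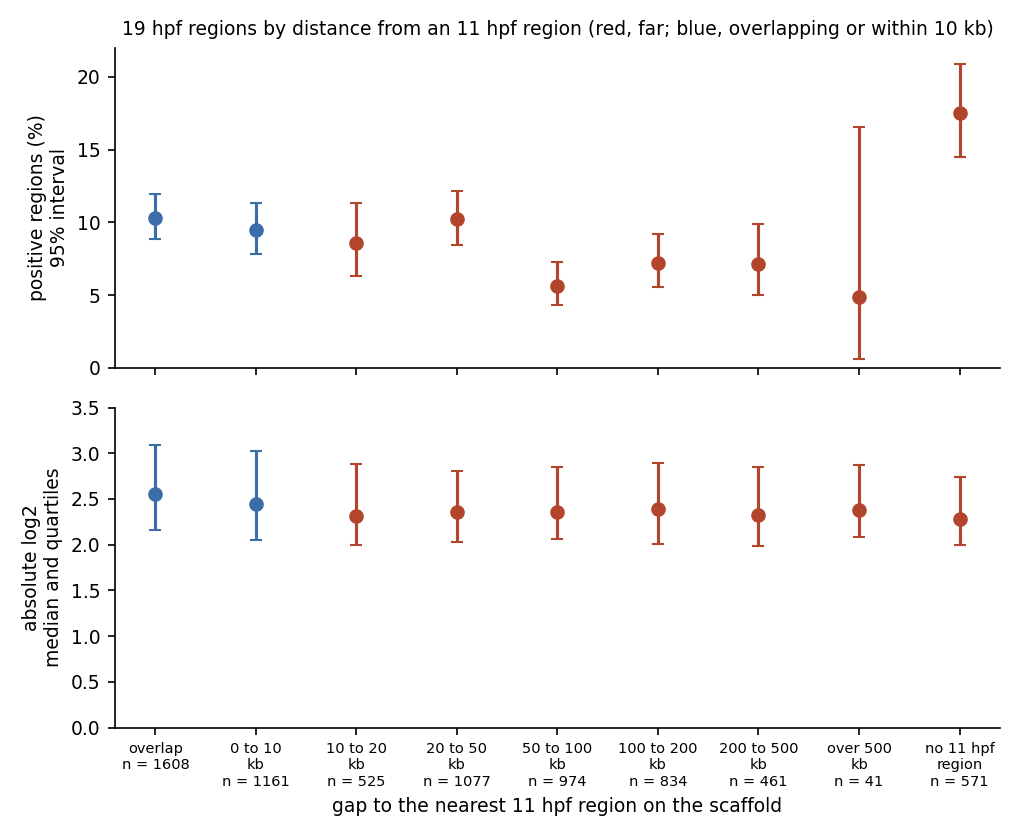
Listed 19 hpf regions by gap to the nearest 11 hpf region on the same scaffold (x axis, with the number of regions), for far regions (red) and near regions (blue). The upper panel gives the share of positive regions with its 95% interval, which is highest, at 17.5%, on scaffolds with no 11 hpf region; the lower panel gives the median and quartiles of the absolute log2, with medians of 2.29 to 2.39 in all far classes.

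The farthest far regions were on Sc0000032, over 1 Mb from the nearest 11 hpf region, whose value was -2.33. A pair there was positive, with 2.65 (2533038 to 2533629, gap of 1170 kb) and 3.30 (2530088 to 2531931, gap of 1167 kb). The next was negative, with -2.13 (2494247 to 2495087, gap of 1131 kb).

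The positive share moved with the span of the scaffold, taken as the end of its last listed region in either list. Among far regions, 88 of 453 were positive on scaffolds under 100 kb (19.4%, 95% interval 15.9 to 23.4%), 147 of 1264 at 100 kb to 1 Mb (11.6%, 9.91 to 13.5%), 104 of 1147 at 1 to 3 Mb (9.07%, 7.47 to 10.9%) and 66 of 1619 over 3 Mb (4.08%, 3.17 to 5.16%). Near regions followed the same order over a smaller range, with 13.4% (8.78 to 19.3%), 12.4% (10.1 to 14.9%), 10.5% (8.44 to 12.9%) and 7.19% (5.70 to 8.93%). The 11 hpf list did so too, with 47.6%, 35.9%, 30.9% and 23.3% positive. The far share thus lay above the near share under 100 kb and below it in the longer classes. The far and near intervals were apart only over 3 Mb. The difference over all scaffolds joins classes in which its sign differed. The scaffolds with no 11 hpf region were all under 1 Mb. At 100 kb to 1 Mb the far regions were 11.2% positive (7.0 to 16.8%) on scaffolds without an 11 hpf region and 11.7% (9.84 to 13.8%) on scaffolds with one. Under 100 kb the shares were 20.4% (16.5 to 24.7%) of 393 and 13.3% (5.94 to 24.6%) of 60. The span of a scaffold moves with the positive share of every set described here, and its part in the results by distance was not tested beyond these values.

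**Figure D3:**
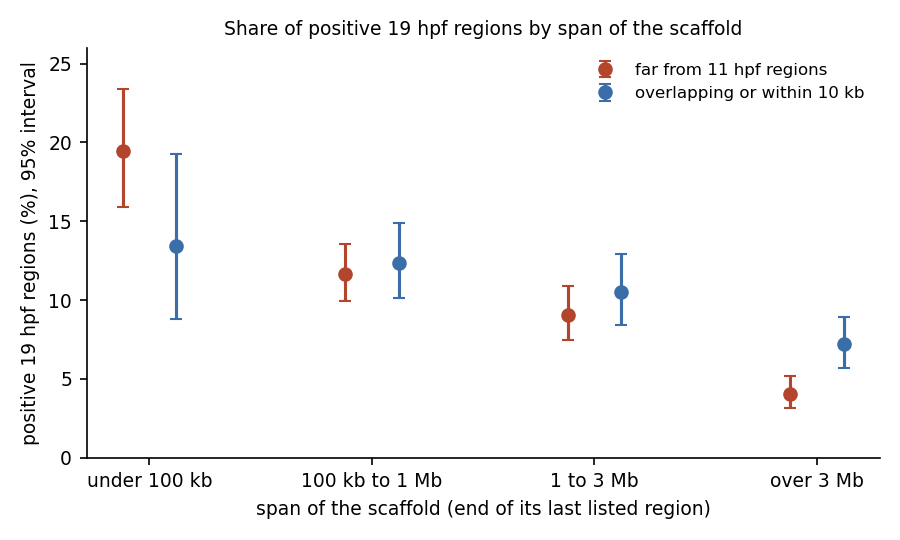
Share of positive regions among listed 19 hpf regions (y axis, points with 95% intervals) by span of the scaffold (x axis), for far regions (red, left of each pair) and near regions (blue, right). The far share is 19.4% under 100 kb and 4.08% over 3 Mb; the near share is 13.4% and 7.19%.

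Among scaffolds of 100 kb or more, the positive share of far regions was lower at gaps over 50 kb than at shorter gaps in each span class. On scaffolds of 1 to 3 Mb, 6.65% of 662 far regions with a gap over 50 kb were positive (95% interval 4.87 to 8.82%), against 12.4% of 485 with a gap up to 50 kb (9.57 to 15.6%). Over 3 Mb the shares were 3.56% of 983 (2.49 to 4.92%) and 4.87% of 636 (3.34 to 6.85%), and at 100 kb to 1 Mb they were 10.6% of 660 (8.36 to 13.2%) and 13.4% of 426 (10.3 to 17.0%). The intervals overlapped in the last 2 classes.

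The sign of a far region went weakly with the sign of the nearest 11 hpf region. Of 1173 far regions whose nearest 11 hpf region was positive, 134 were positive (11.4%, 95% interval 9.66 to 13.4%). Of 2739 whose nearest 11 hpf region was negative, 171 were positive (6.24%, 5.37 to 7.22%). In flanking regions, at up to 10 kb, the same shares were 29.0% of 269 (23.6 to 34.8%) and 3.59% of 892 (2.47 to 5.03%). By distance, the far shares were 12.1% and 7.18% at 10 to 20 kb and 13.7% and 8.58% at 20 to 50 kb. They were 7.09% and 5.01% at 50 to 100 kb and 11.6% and 5.32% at 100 to 200 kb. At 200 to 500 kb they were 15.2% (9.41 to 22.7%) and 4.17% (2.30 to 6.89%), and beyond 500 kb 0% of 9 and 6.25% of 32. Among far regions the difference thus did not shrink steadily with distance. The far difference kept its direction in each span class, at 20% against 10% under 100 kb, 16.9% against 9.04% at 100 kb to 1 Mb, 12.3% against 7.60% at 1 to 3 Mb and 5.61% against 3.53% over 3 Mb. The 95% intervals of the pair were apart at 100 kb to 1 Mb (13.2 to 21.1% and 7.05 to 11.4%) and overlapped in the other 3 classes. Of all far regions with an 11 hpf region on their scaffold, 69.1% had the sign of the nearest 11 hpf region, close to the 66.9% that the shares of positive regions among far and nearest 11 hpf regions alone would give. The 19 and 11 hpf values come from separate libraries with separate controls.

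The sequence between 11 hpf regions was used to ask how densely late regions were listed at each distance. In stretches between successive 11 hpf regions, with distance measured to the midpoint, listed 19 hpf regions without overlap numbered 36.5 per Mb at 1 to 2 kb (95% Poisson interval 31.3 to 42.4), 21.2 per Mb at 2 to 5 kb (18.7 to 23.9) and 17.3 per Mb at 5 to 10 kb (15.5 to 19.3). Beyond 10 kb, in the range of the far regions, the density was 13.5 per Mb at 10 to 20 kb (12.3 to 14.8), 12.1 at 20 to 50 kb (11.3 to 13.0), 10.7 at 50 to 100 kb (9.91 to 11.4) and 10.6 at 100 to 200 kb (9.72 to 11.5). The 2 last classes differed by less than their intervals. These densities are per Mb of sequence, and the numbered 19 hpf regions at each distance were not counted. The larger distances come only from long stretches. Among stretches with far regions, those over 200 kb held 19.3 numbered 11 hpf regions per 100 kb, against 27.5 in those of 20 to 50 kb. Among stretches without far regions the contrast was smaller, with 18.8 over 200 kb and 23.3 at 20 to 50 kb. The part of this in the fall with distance was not tested. Positive regions alone numbered 1.09 per Mb at 10 to 20 kb (0.760 to 1.52), 1.12 at 20 to 50 kb (0.889 to 1.39), 0.541 at 50 to 100 kb (0.383 to 0.742) and 0.545 at 100 to 200 kb (0.368 to 0.778).

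**Figure D4:**
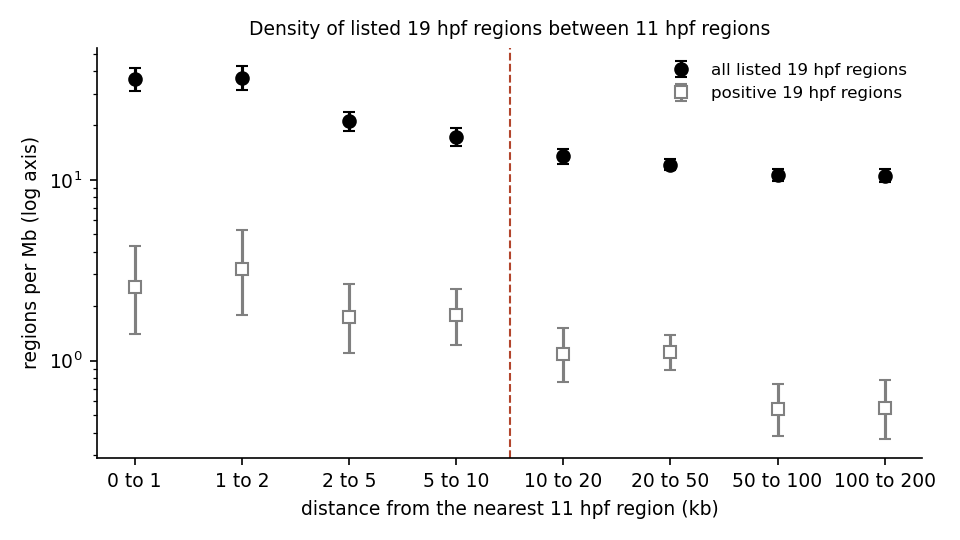
Listed 19 hpf regions per Mb of sequence between 11 hpf regions (y axis, log scale) by distance of their midpoint from the nearest 11 hpf region (x axis), for all regions (filled circles) and positive ones (open squares), with 95% Poisson intervals; regions that overlap an 11 hpf region are left out and the dashed line marks 10 kb. The density of all regions is 36.5 per Mb at 1 to 2 kb and 10.6 per Mb at 100 to 200 kb; at 0 to 1 kb wide regions have little room without overlapping.

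The stretches that held far regions also held many numbered 11 hpf regions that were not listed. Between 11 hpf regions lay 2877 of the far regions, in 995 stretches with a median length of 184 kb. Another 1035 lay beyond the outermost 11 hpf region of their scaffold. From the running numbers, the 995 stretches held 46093 numbered 11 hpf regions that were not listed, or 20.1 per 100 kb, with a median of 37 in a stretch. Whether a numbered 11 hpf region lay at the very place of a far region cannot be read from the lists. The 753 stretches over 20 kb that held no far region had 21.0 per 100 kb and were shorter, with a median of 58.6 kb. Pooled within classes of length, the stretches with far regions held more numbered regions. They had 27.5 against 23.3 per 100 kb at 20 to 50 kb, 24.6 against 21.5 at 50 to 100 kb and 21.6 against 20.5 at 100 to 200 kb. Over 200 kb the pooled values were 19.3 and 18.8, but the medians over stretches had the other order, at 20.1 and 20.3. In the shorter classes the medians kept the order of the pooled values. A stretch with more numbered regions gives more places at which a region could be listed, so this order was not read further.

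Far regions between 2 negative 11 hpf regions were less often positive than those between regions of both signs. Far regions were positive in 4.87% of 1499 cases between 11 hpf regions that were both negative (95% interval 3.84 to 6.08%), in 8.73% of 1134 cases between regions of both signs (7.15 to 10.5%) and in 8.61% of 244 cases between regions that were both positive (5.41 to 12.9%). The share between positive flanks was no higher than that between flanks of both signs, and its interval overlapped that between negative flanks. These shares were not split by span of the scaffold. The stretch with the most far regions was on Sc0000011 (4229429 to 5014364), 785 kb long. It held 24 far regions, 23 of them negative, with values from -4.63 to 2.92 and a median of -2.48, among 173 numbered and unlisted 11 hpf regions. Another stretch on Sc0000011 (591957 to 1354925) held 17 far regions and one on Sc0000003 (7277772 to 7671739) held 16, all of them negative, with medians of -2.32 and -2.76.

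Most far regions had no far neighbour within 10 kb, while at 50 kb most had one. Of the 4483, 2964 had no other far region within 10 kb, and for 2908 (64.9%) no listed 19 hpf region of either kind lay that close. Another 1519 (33.9%, 95% interval 32.5 to 35.3%) had a far neighbour within 10 kb, and 64.7% had one within 50 kb. They formed 636 runs, of which 475 were pairs, 103 had 3 members, 39 had 4 and 19 had 5 or more. Of near regions 67.4% had a near neighbour, but these gather around 11 hpf regions by definition, so the shares of far and near regions do not measure the same thing. Of the negative far regions 34.3% (32.9 to 35.8%) had a far neighbour, and of the positive ones 29.4% (25.0 to 34.1%). In the whole 19 hpf list 47.8% of regions had a listed neighbour within 10 kb, with 48.6% of negative and 40.1% of positive ones. The order by sign was thus not particular to far regions.

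Far neighbours mostly shared their sign, as neighbours did in the whole 19 hpf list. Of 883 neighbouring far pairs, 790 were both negative, 42 both positive and 51 of opposite sign, which makes 94.2% of matching sign (95% interval 92.5 to 95.7%), against 95.5% in near pairs and 94.7% in the whole list. Positive regions make up only 9.03% of far regions, but of the 135 neighbour places beside a positive far region, 84 (62.2%) were taken by another positive far region. The same share was 69.0% in near regions and 65.2% in the whole list. By runs, 563 were all negative, 28 all positive and 45 mixed. Of the 3694 pairs of successive far regions on a scaffold, at any distance, 707 had consecutive running numbers. Of these 707 pairs, not all of them within 10 kb, 683 (96.6%) had the same sign, against 98.0% in near regions and 97.3% in the whole list. Across the 790 pairs that were both negative, Pearson's r between the log2 values of the 2 members was 0.28. The members of a pair share the libraries and the local depth.

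The median fold change was larger in larger runs. The median absolute log2 was 2.29 in lone far regions (quartiles 1.99 to 2.74), 2.41 in pairs (2.07 to 2.93), 2.53 in runs of 3 (2.14 to 3.07) and 2.68 in runs of 4 or more (2.21 to 3.44). The 260 regions in runs of 4 or more were somewhat narrower than lone ones, with median widths of 455 and 494 bp, and narrow regions had larger values in the whole list. The quartiles of lone regions and of regions in runs overlapped widely. Larger values beside a neighbour were not particular to far regions. The medians of lone regions and of those with a neighbour were 2.29 and 2.45 in far regions. They were 2.38 and 2.59 in near regions and 2.31 and 2.53 in the whole 19 hpf list.

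The largest run, on Sc0000224 (91174 to 133291), was mainly positive. Its 8 members had values of 2.91, -2.64, 3.71, 3.11, 2.82, 2.45, 1.89 and 3.42 in order along 42.1 kb and lay among 17 running numbers, with a smallest gap of 144 kb to an 11 hpf region. The single negative member stood second in the row. On the whole scaffold 10 of 15 far regions were positive, the only near region was negative at -1.92, and both 11 hpf regions were positive. Of the 99 scaffolds with at least 10 far regions, only this one and Sc0000089, with 6 of 11, had more positive than negative far regions, and 32 had 0 positive ones. These scaffold counts were made after the values had been seen.

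A run of 7 on Sc0000043 (712933 to 755393) held both signs. Its values were 2.45, 2.52, -3.36, 1.90, 2.82, -3.10 and -2.11 along 42.5 kb and 11 running numbers. The nearest 11 hpf region was 32.7 kb away. A run of the same size on Sc0000154 (533928 to 552782) was all negative, with values from -3.54 to -1.94 and a median of -2.42 over 18.9 kb.

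The other 3 of the 6 runs named were all negative. On Sc0000042 (759665 to 778686) all 6 members had consecutive numbers, and the lowest values stood in the middle of the row: -2.59, -4.12, -5.85, -5.19, -1.82 and -2.02. On Sc0000535 (63091 to 85379), a scaffold with no 11 hpf region, 6 members had values from -3.15 to -1.80. On Sc0000013 (920005 to 928939) 5 members with consecutive numbers fell within 8.94 kb, with -2.39, -4.45, -2.93, -4.78 and -3.74. It was the shortest of the runs of 5. Runs in which every member was positive had at most 3 members, the shortest of these on Sc0000006 (1467849 to 1477497), with 2.04, 3.46 and 2.54.

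**Figure D5:**
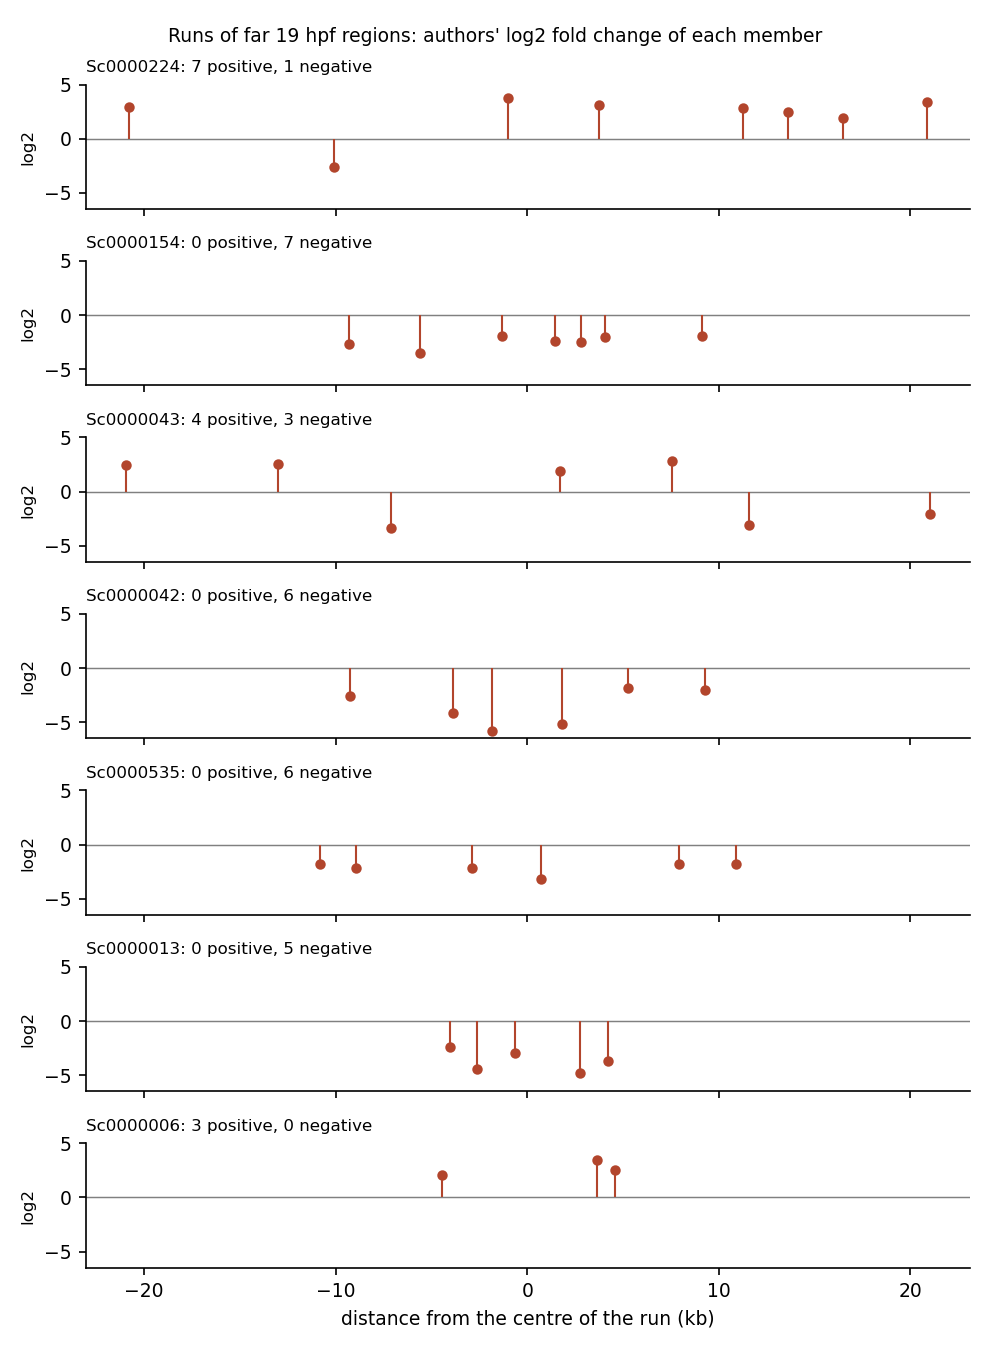
The 6 largest runs of far regions and the largest all-positive one, with each member drawn at its distance from the centre of the run (x axis, kb) and its log2 fold change, sign as deposited (y axis). Sc0000224 has 7 positive members and 1 negative, Sc0000043 has 4 and 3, Sc0000006 has 3 positive members, and the runs on Sc0000154, Sc0000042, Sc0000535 and Sc0000013 are all negative.

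Unbroken rows of far regions in the running numbers were also counted. There were 3 rows of 6 consecutive numbers, 6 rows of 5 and 26 rows of 4. The rows of 6 were those on Sc0000042 and, within the run of 7, on Sc0000154 (537434 to 552782), and a further row on Sc0000008 (5833979 to 5868119), which spanned 34.1 kb with values from -4.22 to -2.22 and a median of -3.51. All 18 of these regions were negative, and in each row no numbered 19 hpf region between the first and the last was unlisted.

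Scaffolds without an 11 hpf region mostly held few far regions. Sc0000535 held the most, 10, all negative, with a median log2 of -2.11. The next 5 scaffolds held 9 each. Of these, Sc0000172 had 2 positive and 7 negative regions, and Sc0000186, Sc0000189, Sc0000190 and Sc0000412 had only negative ones, with medians of -2.50, -2.64, -2.96 and -2.19. The far regions on scaffolds without an 11 hpf region were wider than those on the other scaffolds, with median widths of 544 and 478 bp.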

How the data were processed

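Per time point there was 1 deposited list of differential regions, whose signed column was taken to hold log2 fold changes, from its values and the tool named. BWA and DESeq2 were used by the authors, per the submitters' processing notes. Their versions, the genome build, the peak caller, the threshold, pooling, the numerator and the base of the logarithm were not given in the sources used here.

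Gaps were computed with pandas 2.3.3 and NumPy 2.4.6, tested on simulated data, and equalled those of bedtools 2.31.1 for 7252 of 7252 regions. Depth is unknown. No test was made, because the lists hold no values per library. Intervals of shares, rates and medians are exact (SciPy 1.17.1). Those of differences in share are not exact: the distances of the 2 shares from their limits were combined as the root of their summed squares. A run is a set of successive far regions at most 10 kb apart.

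The rule for named regions took the 8 highest and lowest log2 values, the 6 largest runs and the largest all-positive one, 3 rows of consecutive numbers, the 3 farthest, the 5 widest, 3 on each side of 10 kb, 3 stretches and 3 scaffolds without an 11 hpf region. Ties were added for the scaffolds. The members, lists and classes were chosen with earlier results of these data known.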

Additional observations from a re-analysis of the deposited data

How the results depend on the processing

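No paired analysis was possible because the lists hold no values per library, and leaving out each library was not run for the same reason. The depth of the libraries limits which regions could be listed at either time and is unknown. Of 130 values under alternatives, 93 stayed within the interval (or 1.5 times the count) of the value in the report, 35 moved beyond it and 2 reversed, and the cause was not tested unless an alternative's own construction shows it. The difference in positive share, far minus near, reversed to 1.56 points with only 11 hpf regions whose absolute log2 was 2 or more and to 0.81 points with only such 19 hpf regions, and was -2.46 points on scaffolds of 1 Mb or more. The number of far regions was 2881 with a gap over 50 kb and 2766 on scaffolds of 1 Mb or more. Their positive share was 7.80% on scaffolds with an 11 hpf region and 6.15% on those of 1 Mb or more. The median absolute log2 of far regions was 2.54 among 19 hpf regions at 2 or more, and the mean was 2.53. Far minus near, it was -0.10 with a gap over 50 kb, -0.26 with 11 hpf regions at 2 or more and -0.12 with 19 hpf regions at 2 or more. The median width was 501 bp with 11 hpf and 438 bp with 19 hpf regions at 2 or more, and the mean was 577 bp. The difference in width was -169 bp for all regions without overlap, -32 bp with a gap over 50 kb, -25.5 bp with 11 hpf regions at 2 or more and -108 bp after merging within 500 bp. The share of far regions with a far neighbour was 37.2% for all regions without overlap, 32.1% with a gap over 50 kb, 37.7% with 11 hpf and 31.1% with 19 hpf regions at 2 or more. It was 35.6% on scaffolds with an 11 hpf region, 36.0% on those of 1 Mb or more, 30.6% after merging, 24.5% for neighbours within 5 kb and 64.7% within 50 kb. Pairs had the same sign in 95.8% of cases with 19 hpf regions at 2 or more, 95.7% within 5 kb and 91.5% within 50 kb. The sign of the nearest 11 hpf region was shared by 69.1% of far regions (66.9% from the shares of positive regions alone). It was shared by 71.8% of all regions without overlap and by 73.5% of far regions with 11 hpf regions at 2 or more. The 66.9% belongs to the far regions as reported. No such value was computed for the alternatives, whose shares of positive regions differ, so their values cannot be set against it. The density of numbered 11 hpf regions in stretches with far regions, 20.1 per 100 kb, was 19.9 with a gap over 20 kb, 19.5 with one over 50 kb, 19.9 with 19 hpf regions at 2 or more and 19.6 on scaffolds of 1 Mb or more. Keeping only scaffolds named Sc, chosen after seeing the data, moved none of the 11 results it was run for. These scaffolds held 4264 of the far regions, 8.51% of them positive (95% interval 7.69 to 9.39%). The positive share was higher in the 137 far regions on xfSc scaffolds (19.0%, 12.8 to 26.6%) and the 82 on xpSc scaffolds (19.5%, 11.6 to 29.7%). Near regions had 9.78%, 17.4% and 14.7% in the same order. These shares were not split by span.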
